A study of Mus musculus with 2 samples.

Results

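The genes described are 10 members of the guidance families first known from axon growth: Slit2, Slit3, Robo1, Robo2, Sema3a, Nrp1, Nrp2, Ntn4, Efna5 and Epha3. They were taken by symbol, 10 of the 32285 genes counted. They were named with their levels per hashtag and across the cells of these same data known, so they count as selected on those levels, though how the levels were weighed is not stated. Their levels are therefore given as a description and no test was run on them. The counts come from cultured aortic vascular smooth muscle cells (VSMCs) of C57BL/6 mice in 4 groups, each taken as 1 culture because no replicate cultures are told apart. The groups were young VSMCs (mice of 12 weeks), old VSMCs (58 to 78 weeks), young VSMCs treated with 100 nM angiotensin II (AngII) for 48 h as a model of premature aging, and old VSMCs transfected with siRNA against Piezo1 (siPiezo1, 20 nM by the study's methods). The old cells are the control of the last group. The study's methods list a nontargeting siRNA, and whether the hashed old cells received it is not stated in the sources used here. All cells were cultured, so none is a cell taken directly from the vessel wall. The cells of each group carried a hashtag (an antibody with a DNA tag) and were mixed into 1 droplet library. The groups are named by the numbers in the study's schematic (young 1, old 2, young + AngII 3, old + siPiezo1 4), which are not stated to be tag numbers.

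Slit proteins are secreted ligands that bind Robo receptors and turn growing axons and migrating cells away, and Slit and Robo proteins also act in vessel growth. Class 3 semaphorins such as Sema3a are secreted repellents that bind neuropilins (Nrp1, Nrp2), which signal with plexins and also serve as co-receptors of vascular endothelial growth factor. Netrin-4 (Ntn4) is a laminin-related protein of basement membranes, and ephrin-A5 (Efna5) is a membrane-anchored ligand of EphA receptor tyrosine kinases such as Epha3, read at contacts between cells.

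The members lie in long genes, given here by the GENCODE vM21 annotation on GRCm38, looked up by Ensembl identifier. The sources used here do not name the build that the authors aligned to. Their spans ran from 107 to 738 kb with a median of 323 kb, against a median of 27.0 kb over the 10259 genes with a match among those tested for ratios. Slit2 (ENSMUSG00000031558) is at chr5:47983138-48307733 on the plus strand and Slit3 (ENSMUSG00000056427) at chr11:35121224-35708507 on the plus strand. Robo1 (ENSMUSG00000022883, chr16:72308306-73046095, plus strand) and Robo2 (ENSMUSG00000052516, chr16:73891839-74411825, minus strand) are 846 kb apart, and Epha3 (ENSMUSG00000052504, chr16:63543534-63864175, minus strand) lies on the same chromosome. Sema3a (ENSMUSG00000028883) is at chr5:13125414-13602565 on the plus strand, Nrp1 (ENSMUSG00000025810) at chr8:128358604-128503363 on the plus strand and Nrp2 (ENSMUSG00000025969) at chr1:62703285-62818695 on the plus strand. Ntn4 (ENSMUSG00000020019) is at chr10:93640681-93747207 on the plus strand and Efna5 (ENSMUSG00000048915) at chr17:62604184-62881317 on the minus strand.

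Both Slit genes hold a copy of the same microRNA. The hairpin of Mir218-1 lies in intron 14 of Slit2 and that of Mir218-2 in intron 14 of Slit3 (transcripts Slit2-201 and Slit3-201), both on the strand of their host, outside every annotated exon of it. The mature sequences from RefSeq (GRCm38.p6) are shown because they are what the loci share beside the Slit coding sequence, with the seed (bases 2 to 8) in capitals. The 5p arms are the same 21 bases in both loci and the 3p arms have different seeds. The microRNAs themselves were not measured here.
mmu-miR-218-5p at chr5:48223966-48223986, in Slit2: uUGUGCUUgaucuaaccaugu
mmu-miR-218-1-3p at chr5:48224005-48224026, in Slit2: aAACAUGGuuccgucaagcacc
mmu-miR-218-5p at chr11:35616840-35616860, in Slit3: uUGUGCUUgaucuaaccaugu
mmu-miR-218-2-3p at chr11:35616882-35616903, in Slit3: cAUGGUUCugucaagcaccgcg

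All 10 members matched a RefSeq start site on GRCm38.p6, with 12 start sites in all. These sites differ in part from the ends of the GENCODE spans given above. For Ntn4, Sema3a, Robo1 and Nrp1 the 250 bases before the RefSeq start lie inside the GENCODE span. For Robo2, those at chr16:75447294-75447543 and chr16:75092771-75093020 lie far beyond its span. The 250 bases before the start are shown for Ntn4 and Epha3, the members nearly missing from the old cells, with each CG dinucleotide in capitals and the sequence read on the gene's strand.
Ntn4, chr10:93640799-93641048, plus strand: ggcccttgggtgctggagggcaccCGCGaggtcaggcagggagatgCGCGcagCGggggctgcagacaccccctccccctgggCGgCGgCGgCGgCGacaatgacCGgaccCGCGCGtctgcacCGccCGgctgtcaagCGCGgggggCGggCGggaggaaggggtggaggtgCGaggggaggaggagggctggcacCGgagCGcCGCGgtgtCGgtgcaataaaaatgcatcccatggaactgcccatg
Epha3, chr16:63864176-63864425, minus strand: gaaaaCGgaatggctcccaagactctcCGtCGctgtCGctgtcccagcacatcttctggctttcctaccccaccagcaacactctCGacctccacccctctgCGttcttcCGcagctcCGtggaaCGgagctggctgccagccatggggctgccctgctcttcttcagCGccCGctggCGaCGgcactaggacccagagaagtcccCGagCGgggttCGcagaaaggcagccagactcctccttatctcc
The Ntn4 window held 26 CG dinucleotides, a number reached by 9.59% of 32851 windows of this length before mouse start sites, and the Epha3 window held 16, reached by 25.4%. The median over the members' start sites was 15 and that over all windows was 6. Slit3 had the most of the members with 35 and Sema3a the fewest with 2. TATAAA in the last 100 bases, read on the gene's strand, was found for Slit2 alone among the members and in 3.8% of all windows.

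Barcodes that held 2218 or more unique molecular identifiers (UMIs, each counting an RNA molecule once) and 200 or more genes were kept, which gave 13045 cells with a median of 7915 UMIs. A cell was given a tag when that tag alone was above its cutoff, which gave 3144 young, 497 old and 1500 AngII-treated young cells and 1529 old cells labelled siPiezo1. The median UMIs of a cell's own tag were 364, 76, 113 and 67 in tags 1 to 4, against cutoffs of 36, 52, 61 and 41. Cells whose highest tag was at least 3 times the next numbered 2649, 179, 1334 and 482. That rule thus kept a smaller part of both old tags, whose tag calls were less clear. No tag passed its cutoff in 5307 cells (40.7%). The deposited counts of the 4 tags summed to between 5577355 UMIs (old) and 24120561 (young). Piezo1 itself was at 89.6 CPM (95% interval 82.0 to 97.9; CPM is the UMIs of a gene scaled to 1000000 UMIs of the tag's cells) in old cells and 86.9 (82.4 to 91.5) in the cells labelled siPiezo1, so it does not check that label. The 9 VSMC markers summed to between 1978 and 3586 CPM in the 4 tags and all were detected. Cald1 was the highest of them in every tag, at 967 to 2030. Myh11, a late contractile marker, was at no more than 7.89 and Des at no more than 3.77. The 5 endothelial markers, which matter here because endothelial cells use neuropilins and ephrins, summed to 3.68 to 8.21, the 5 macrophage markers to 6.15 to 11.7 and the 5 fibroblast markers to 524 to 748, most of it Dcn.

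Levels are in CPM throughout. Each RNA gives 1 UMI at its 3′ end, so levels were not divided by gene length. Intervals are exact 95% Poisson intervals for levels and exact binomial ones for ratios and shares. They hold counting error and nothing of how cultures of a group would vary. Fewer cells of a type and less RNA per cell cannot be told apart in a level summed over a tag.

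**Figure D1:**
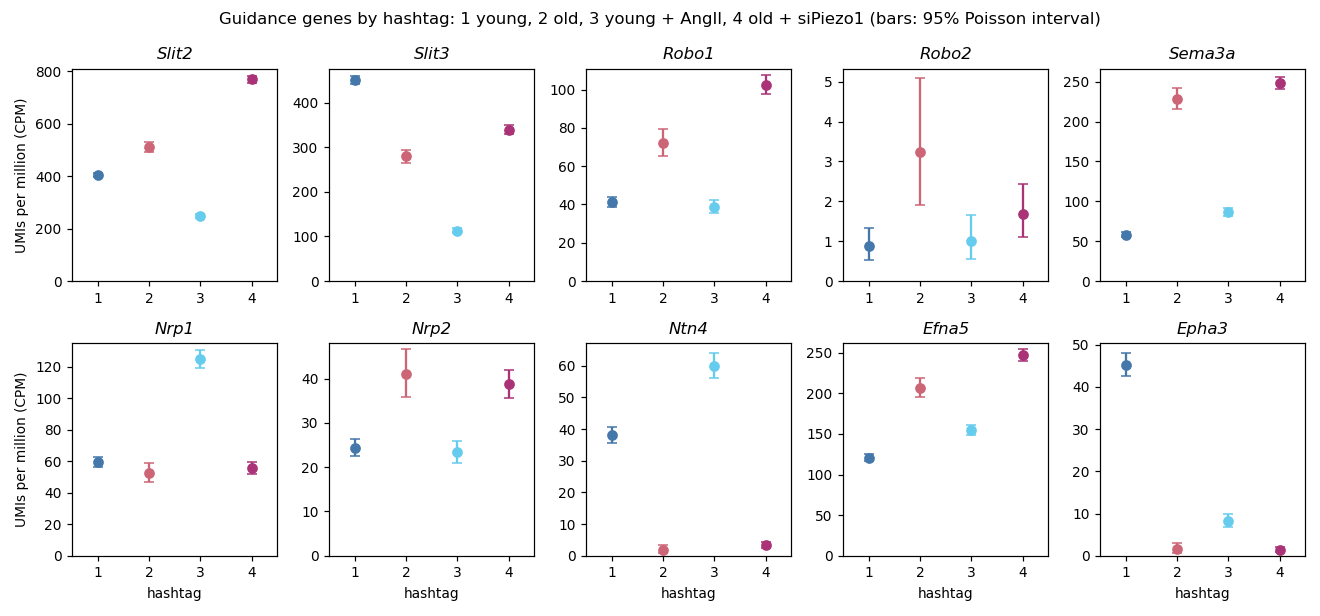
Level of each of the 10 genes (vertical axis from 0, CPM) in cells of hashtags 1 to 4, with exact 95% Poisson intervals. Sema3a, Robo1, Nrp2 and Efna5 are higher in both old tags (2 and 4) than in young cells (tag 1), Ntn4 and Epha3 are near 0 in both old tags, and Nrp1 is highest in AngII-treated young cells (tag 3) at 125.

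The Slit ligands were the members with the most UMIs, and the balance between them differed by group. Young cells held 404 CPM of Slit2 (396 to 412) and old cells 510 (492 to 530), AngII-treated young cells 249 (241 to 258) and old cells labelled siPiezo1 770 (756 to 783). Slit3 stood at 450 CPM in young cells (442 to 459), 279 in old cells (265 to 293), 112 after AngII (107 to 118) and 339 in the siPiezo1 group (331 to 349). Slit2 was thus highest in the siPiezo1 group and Slit3 in young cells, while both were lowest after AngII, and no interval overlapped another for either gene. The ratio of AngII-treated to young cells was 0.250 (0.237 to 0.263) for Slit3 and 0.618 (0.595 to 0.642) for Slit2. Old cells held 1.61-fold (1.53 to 1.70) less Slit3 and 1.26-fold (1.21 to 1.32) more Slit2 than young cells. Slit2 was 1.51-fold (1.45 to 1.57) higher in cells labelled siPiezo1 than in old cells, and Slit3 1.22-fold (1.15 to 1.29). As a share of the Slit family, a measure that does not depend on how the tags are scaled, Slit2 made up 47.3% (46.6 to 48.0) of UMIs in young cells, 64.6% (63.2 to 66.1) in old cells, 68.9% (67.6 to 70.1) after AngII and 69.4% (68.7 to 70.1) in the siPiezo1 group. With each tag taken whole, Slit2 was the larger part in all groups but the young cells.

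In cells thinned to 5000 UMIs, which sets all cells to 1 depth and leaves out shallower ones, the median cell held 1 Slit2 UMI in young cells, 2 in old cells, 1 after AngII and 3 in the siPiezo1 group. At least 1 Slit2 UMI was found in 63.2%, 71.6%, 51.2% and 83.2% of these cells, against 67.7%, 82.3%, 65.7% and 91.0% without thinning. For Slit3 the thinned shares were 67.9%, 56.5%, 29.5% and 66.2%. Slit2 was spread widely within a culture: the tenth of young cells with the most Slit2 held 42.8% of its UMIs, and the highest cell of the young group had 35.

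Robo1, the receptor with nearly all UMIs of its family here, followed Slit2 in order. It was at 41.2 CPM (38.7 to 43.9) in young cells, 72.1 (65.2 to 79.5) in old cells, 38.8 (35.7 to 42.1) after AngII and 102 (97.4 to 107) in the siPiezo1 group. The intervals of young and AngII-treated cells overlap, and the other levels are apart. Old cells were 1.75-fold (1.55 to 1.97) above young cells, and cells labelled siPiezo1 were 1.42-fold (1.27 to 1.59) above old cells. Robo1 took 91.7% (89.9 to 93.3) to 97.6% (96.7 to 98.2) of the UMIs of Robo1 to Robo4 over the 4 tags. Robo2 was barely detected, with 21, 18, 15 and 27 UMIs in tags 1 to 4, or 0.871, 3.23, 1.0 and 1.68 CPM. It was left out of the ratios, whose filter was a mean of at least 5 CPM over the 4 tags, and the other 9 members passed it.

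Sema3a had the highest ratio of old to young cells of the 9 members tested. It was at 58.0 CPM (55.0 to 61.1) in young cells, 229 (216 to 242) in old cells, 86.9 (82.2 to 91.7) after AngII and 249 (241 to 256) in the siPiezo1 group. Both old tags were above both young tags, and the intervals of old cells with and without siPiezo1 touch. The ratio of old to young cells was 3.94 (3.65 to 4.26), and 51 of the 10263 genes tested had a higher one. Sema3a was chosen with these levels known, so nothing is read from this rank. The ratio after AngII was 1.498 (1.39 to 1.62), just under the 1.5-fold limit used for counts. Thinned cells with a Sema3a UMI made up 16.2% of young, 46.6% of old, 26.2% of AngII-treated and 51.3% of siPiezo1-labelled cells.

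The neuropilins, which bind Sema3a, differed from young cells in different groups. Nrp1 was at 59.6 CPM (56.5 to 62.7) in young cells, 52.7 (46.9 to 59.1) in old cells, 125 (119 to 131) after AngII and 55.5 (51.9 to 59.3) in the siPiezo1 group. It stood apart in the AngII-treated cells, 2.10-fold (1.96 to 2.25) above young cells, and the other 3 levels overlap within counting error. Nrp2 stood at 24.4 CPM in young (22.4 to 26.4) and 23.4 in AngII-treated cells (21.0 to 26.0), and at 41.1 in old (35.9 to 46.7) and 38.7 in siPiezo1-labelled cells (35.8 to 41.9), so that the old tags lay above the young tags with no overlap between the pairs. Nrp1 made up 71.0% (68.9 to 72.9) of neuropilin UMIs in young cells, 56.2% (51.8 to 60.5) in old cells, 84.2% (82.6 to 85.7) after AngII and 58.9% (56.4 to 61.4) in the siPiezo1 group.

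Ntn4, the basement membrane netrin, was present in both young tags and nearly missing from both old tags. It was at 38.1 CPM (35.7 to 40.7) in young cells, 1.79 (0.860 to 3.30) in old cells, 59.9 (56.0 to 63.9) after AngII and 3.29 (2.46 to 4.30) in the siPiezo1 group, the old value resting on 10 UMIs. Old cells were 21.3-fold (11.5 to 44.5) lower than young cells, and AngII-treated cells 1.57-fold (1.43 to 1.72) higher. Free RNA, estimated at 2.30% of a cell's UMIs, would give 0.297 CPM of Ntn4. A mean-based estimate of free RNA, which counts doublets in and was set aside after values were seen, would give 4.55 CPM of Ntn4 and 4.05 of Epha3, above their levels in both old tags. With Ntn4 so low, Ntn1, the netrin first described as an axon attractant, made up 84.8% (78.0 to 90.1) of the netrin UMIs in old cells and 75.0% (71.1 to 78.6) in the siPiezo1 group, against 16.4% (14.3 to 18.7) in young and 9.37% (7.64 to 11.4) in AngII-treated cells. Ntn1 was itself 2.94-fold (2.33 to 3.71) higher in old than in young cells, at 22.9 against 7.79 CPM.

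The ephrin ligand and the Eph receptor went opposite ways in old cells. Efna5 was at 121 CPM (116 to 125) in young cells, 207 (195 to 219) in old cells, 155 (148 to 161) after AngII and 247 (239 to 255) in the siPiezo1 group, 4 levels with no overlap. Epha3 stood at 45.2 CPM in young cells (42.5 to 48.0), 1.61 in old cells on 9 UMIs (0.738 to 3.06), 8.24 after AngII (6.85 to 9.83) and 1.37 in the siPiezo1 group (0.856 to 2.07). Epha3 was thus highest in young cells, lower after AngII and lowest in the old tags, which overlap each other. Old cells were 28.0-fold (14.7 to 61.4) and AngII-treated cells 5.49-fold (4.55 to 6.67) below young cells. Of the genes tested, 27 had a lower ratio of old to young cells than Epha3 and 41 a lower one than Ntn4. Both genes passed the level filter only through the young tags, so nothing is read from these ranks. Epha3 made up 53.4% (51.2 to 55.6) of EphA receptor UMIs in young cells and 1.97% (0.904 to 3.70) in old cells, where Epha4 took 40.8% (36.3 to 45.5) and Epha5 17.9% (14.5 to 21.7). The summed EphA level was nearly the same in young (84.7 CPM), old (82.1) and siPiezo1-labelled cells (82.8), and 52.8 after AngII. Efna5 kept 89.9% to 92.2% of the ephrin-A UMIs in all 4 tags.

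Within young cells thinned to 5000 UMIs, the variance of Epha3 was 3.10 times its mean, against 1.28 for Ntn4, which had a similar share of cells with none (83.8%, and 86.3% for Epha3). The highest cell had 24 Epha3 UMIs and 4 of Ntn4.

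**Figure D2:**
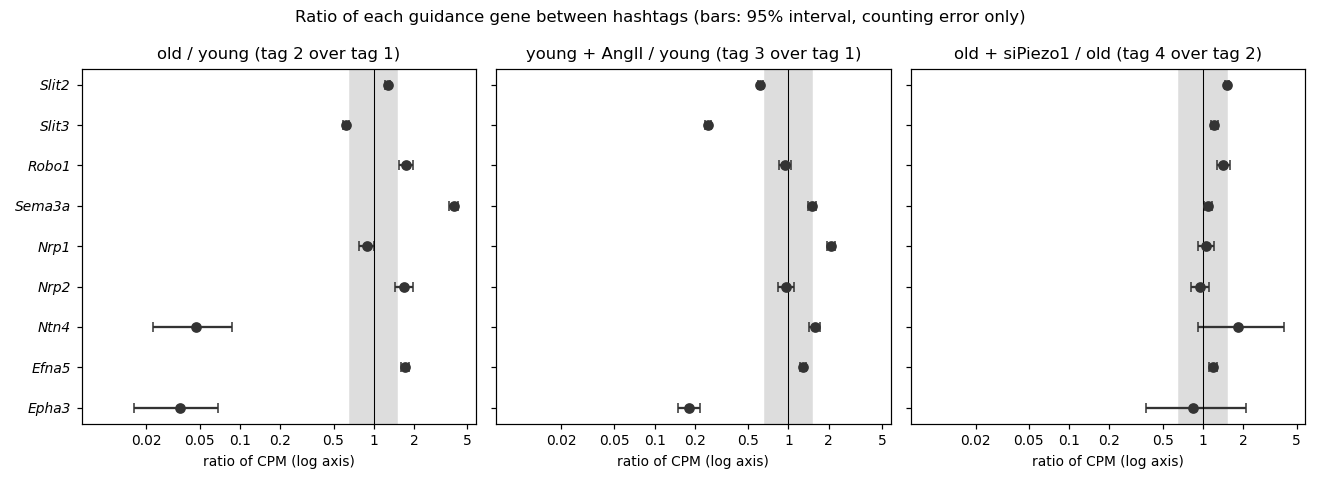
Ratio of CPM (horizontal log axis) for the 9 members tested in old over young cells, AngII-treated over young cells and siPiezo1-labelled over old cells, with 95% intervals of counting error; grey marks less than 1.5-fold. Epha3 and Ntn4 lie far left for old cells, Slit3 and Epha3 left for AngII, and all siPiezo1 ratios lie between 0.846 and 1.84.

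Counted with a fold of 1.5, 4 of the 9 tested members were higher in old than in young cells (Robo1, Sema3a, Nrp2, Efna5) and 3 were lower (Slit3, Ntn4, Epha3). Of all 10263 genes tested, 9.48% were higher and 10.9% lower by that fold, 20.4% in either direction. After AngII, 2 members were higher (Nrp1, Ntn4) and 3 lower (Slit2, Slit3, Epha3), against 7.54% and 8.49% of all genes and 16% in either direction. The Ntn4 ratio of 1.57 fell under the fold in Y-only cells (1.44), in Xist-only cells (1.39) and after thinning to 5000 UMIs (1.45). Sema3a, at 1.498, passed the fold in Y-only cells (1.63), after thinning and without doublets. It also passed with free RNA subtracted and with cells of at least 1000 UMIs. In the siPiezo1 group 2 were higher than in old cells (Slit2, Ntn4) and 0 lower, against 2.81% and 1.61% of all genes and 4.41% in either direction. Ntn4 passed the level filter only through the young tags, and its ratio there, 1.84 (0.924 to 4.05), rests on 53 and 10 UMIs with an interval that reached below 1. The members were chosen with these levels known, so nothing is read from these shares. The comparisons of old and AngII-treated cells share the young cells, and that of the siPiezo1 group shares the old cells with the first.

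The age of the cells and the sex-linked transcripts they held went together, and this touches several members. Cells with a UMI of Y-linked genes and none of Xist (the RNA of the inactive X chromosome) made up 54.1% of young and 55.5% of AngII-treated cells, but 19.5% of old and 13.8% of siPiezo1-labelled cells. Cells with Xist and no Y-linked UMI made up 4.90%, 6.27%, 63.0% and 66.8% in the order young, AngII, old, siPiezo1. Age and sex of the donors therefore cannot be told apart in the pooled levels, and each comparison was repeated within the Y-only and the Xist-only cells.

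**Figure D3:**
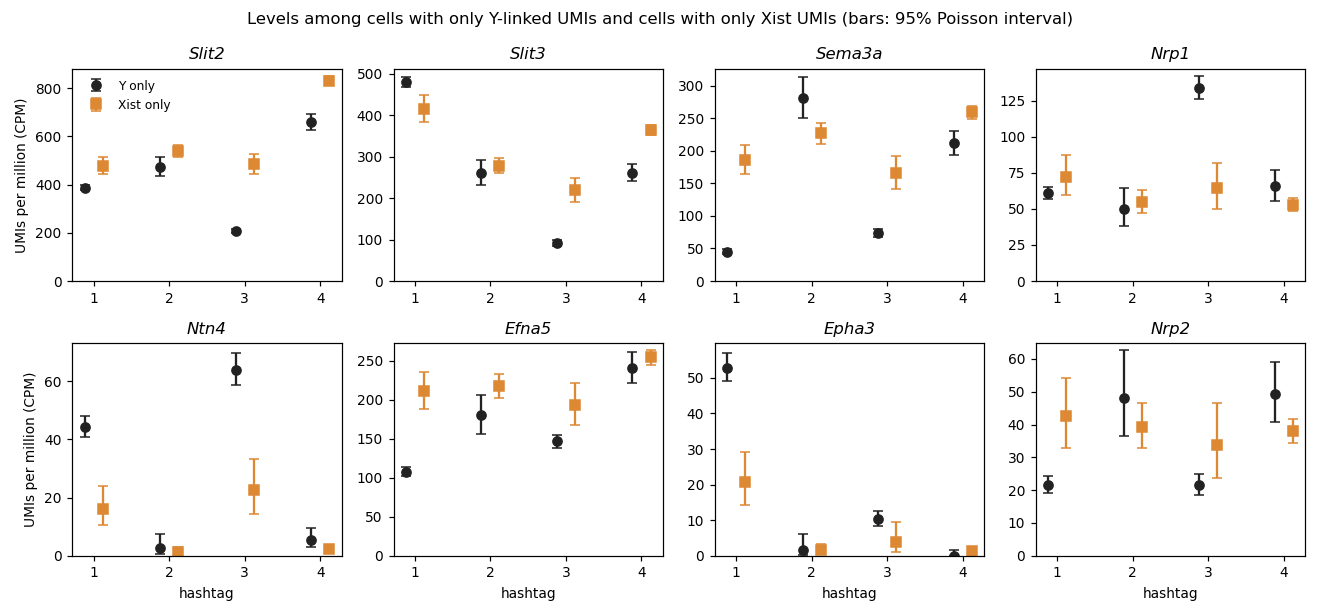
Level of 8 members (vertical axes from 0, CPM) in cells of each hashtag with only Y-linked UMIs (circles) and with only Xist UMIs (squares), with exact 95% Poisson intervals. Ntn4 and Epha3 are low in the old tags (2 and 4) in both kinds of cell, and Sema3a differs between the kinds in young cells, 45.2 against 186.

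Among Y-only cells (1700 young, 97 old), Sema3a was 6.20-fold (5.40 to 7.11) higher in old cells, while among Xist-only cells (154 young, 313 old) the ratio was 1.22 (1.07 to 1.41). Sema3a was at 45.2 CPM in Y-only and 186 in Xist-only young cells, and at 281 and 227 in old cells. Ntn4 and Epha3 stayed far lower in old cells in both kinds: the ratios were 0.058 and 0.033 in Y-only and 0.073 and 0.071 in Xist-only cells. In Xist-only young cells, however, Ntn4 was at 16.2 CPM (10.5 to 23.9) and Epha3 at 20.7 (14.1 to 29.2), against 44.3 (40.8 to 48.0) and 52.8 (49.0 to 56.9) in the Y-only ones. Robo1, Nrp2 and Efna5 were 2.11-, 2.23- and 1.67-fold higher in old cells among Y-only cells, with ratios of 1.15, 0.920 and 1.03 among Xist-only cells. Slit3 was lower in old cells in both, at ratios of 0.543 and 0.671. The balance of the Slit genes within young cells differed between the kinds. Slit2 and Slit3 were at 388 (377 to 398) and 480 (468 to 492) CPM in Y-only young cells. In Xist-only young cells Slit2 was the larger, at 479 (445 to 515) against 415 (383 to 448). Whether the 154 Xist-only young cells carry the right tag was not tested. Sex and a wrong tag therefore cannot be told apart in the Xist-only ratios.

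The AngII comparison depended on the same split. Among Y-only cells (833 AngII, 1700 young) the ratios were 0.537 for Slit2, 0.191 for Slit3, 2.19 for Nrp1 and 0.195 for Epha3. Among Xist-only cells (94 and 154) they were 1.01 (0.904 to 1.13) for Slit2, 0.527 (0.452 to 0.613) for Slit3, 0.891 (0.650 to 1.21) for Nrp1 and 0.181 (0.046 to 0.510) for Epha3. The lower Slit3 and Epha3 thus appeared in both kinds of cell and the lower Slit2 and higher Nrp1 in the Y-only cells. Whether the few Xist-only cells of the young tags carry the right tag was not tested. In the siPiezo1 comparison Slit2 was higher in both, 1.39-fold (1.26 to 1.54) and 1.54-fold (1.46 to 1.62), with 211 and 1021 siPiezo1-labelled cells. Efna5 was also higher in both, at ratios of 1.34 (1.14 to 1.57) and 1.17 (1.08 to 1.27). Slit3 was higher in Xist-only cells, at 1.31 (1.22 to 1.40), but its Y-only ratio was 1.003 (0.872 to 1.15). Robo1 was at 1.49 (1.29 to 1.72) in Xist-only cells and 1.16 (0.907 to 1.49) in Y-only cells, an interval that reached below 1. Sema3a had a siPiezo1 ratio of 0.753 (0.654 to 0.869) in Y-only and 1.14 (1.05 to 1.24) in Xist-only cells.

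Beyond the members, a list of 89 genes of the same 4 systems was examined, of which 47 passed the level filter and 38 are not members. Of these 38, 14 were higher and 2 lower in old than in young cells, with a median ratio of 1.15 beside 1.02 over all genes tested, of which 9.48% were higher and 10.9% lower. After AngII 10 were higher and 4 lower (median 1.16 beside 1.03), against 7.54% and 8.49% of all genes. In the siPiezo1 group 3 were higher and 2 lower (median 0.992 beside 1.02), against 2.81% and 1.61%. This list too was chosen with earlier results of these data known, so nothing is read from these shares and medians. The genes of this list that are not members were not compared within Y-only or Xist-only cells. Among the ligands, Sema3c was 2.44-fold (2.27 to 2.62) higher in old cells. Sema3e, which signals through plexin D1, was 2.12-fold (1.94 to 2.32) higher in old cells and 2.96-fold (2.78 to 3.15) higher after AngII, and 2.08-fold (1.89 to 2.29) lower in the siPiezo1 group than in old cells. Sema6a, a membrane-bound semaphorin, was 2.43-fold (1.92 to 3.11) lower after AngII.

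Among the receptors and co-receptors, the EphA receptors Epha4 and Epha5 were 2.45-fold (2.04 to 2.94) and 5.07-fold (3.64 to 7.07) higher in old cells. Epha5 passed the level filter only through the old tags, at 14.7 CPM in old and 2.90 in young cells, so nothing is read from its ratio. The netrin receptors Unc5b and Unc5c were 2.13-fold (1.91 to 2.37) and 2.77-fold (2.61 to 2.96) higher after AngII. Plxna2, a plexin that signals with neuropilins, was 2.42-fold (2.14 to 2.73) higher after AngII, and Plxna4 was 2.93-fold (1.67 to 5.63) lower in old cells on 13 UMIs. Plxna4 passed the level filter only through the young tags, so nothing is read from its ratio either. Dpysl3, of the collapsin response mediators that act downstream of semaphorins, and Flrt2, a membrane protein that binds Unc5 receptors, were 2.71-fold (2.51 to 2.92) and 2.53-fold (2.34 to 2.74) higher in old cells. Gpc1, a heparan sulfate proteoglycan that binds Slit, was 2.61-fold (2.21 to 3.10) higher after AngII.

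Within each culture, cells were ranked by the share of their UMIs in the 9 VSMC markers, of which Cald1 had the most. They were cut into 3 equal parts, which are ranges and not cell types. Slit2 was lower in the upper than in the lower part in every tag. In the lower, middle and upper part it was at 441, 404 and 369 CPM in young cells, 715, 492 and 368 in old cells, 295, 258 and 194 after AngII, and 1058, 847 and 490 in the siPiezo1 group. The ratio of upper to lower part was 0.836 (0.796 to 0.878), 0.514 (0.468 to 0.565), 0.658 (0.606 to 0.714) and 0.463 (0.443 to 0.485). Slit2 was at 368 and 369 CPM in the upper part of old and young cells, while their lower parts differed. The parts were cut within each tag and are not the same range of marker share. The median share was 0.521% of UMIs in the upper part of old and 0.397% in that of young cells. In the lower parts it was 0.0983% and 0.137%. Old and young parts are therefore not like for like.

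**Figure D4:**
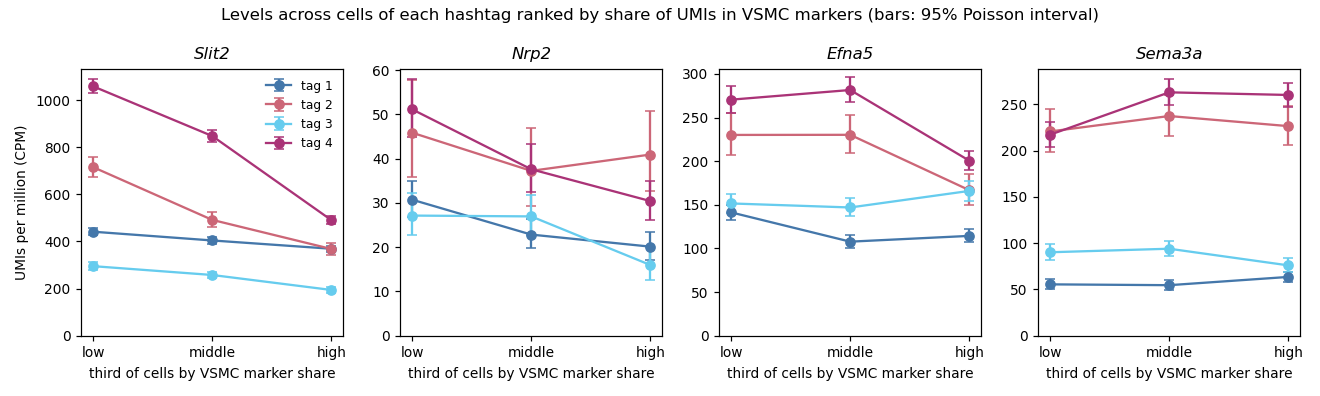
Level (vertical axes from 0, CPM) of Slit2, Nrp2, Efna5 and Sema3a in cells of each hashtag split into 3 equal parts by the share of UMIs in VSMC markers, with exact 95% Poisson intervals. Slit2 falls from the low to the high part in all 4 tags, most in tag 4, from 1058 to 490.

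Nrp2 was also lower in the upper part, with ratios of 0.655 (0.533 to 0.802) in young cells, 0.589 (0.439 to 0.784) after AngII and 0.595 (0.489 to 0.723) in the siPiezo1 group, and 0.892 (0.644 to 1.24) in old cells. Ntn4 went the other way, with ratios of 1.29 (1.09 to 1.51) in young cells, 1.67 (1.41 to 1.98) after AngII and 7.08 (2.55 to 27.3) in the siPiezo1 group, the last on 38 against 4 UMIs, and 0.981 (0.211 to 4.94) in old cells on 5 against 4. Sema3a had ratios between 0.843 and 1.20 and Nrp1 between 0.902 and 1.07. The share of cells called doublets by Scrublet in the lower and upper part was 18.9% and 24.4% in young cells, 11.4% and 16.4% in old cells, 25.6% and 13.8% after AngII, and 6.86% and 26.9% in the siPiezo1 group. Its part in these ratios was not tested.

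Cells with at least 10 UMIs of the 8 markers of dividing cells were compared with cells that held at most 1, after thinning. Sema3a was lower in dividing cells of young (ratio 0.553, 0.401 to 0.748), old (0.664, 0.482 to 0.897) and siPiezo1-labelled cells (0.787, 0.679 to 0.908), and at 1.36 (0.952 to 1.89) after AngII, where 75 cells were dividing. Robo1 was lower in dividing cells of the siPiezo1 group, at a ratio of 0.632 (0.499 to 0.794). Its ratio was 0.819 (0.611 to 1.08) in young cells, 0.628 (0.340 to 1.08) in old cells and 1.19 (0.676 to 1.96) after AngII. Nrp2 was lower in dividing cells of the siPiezo1 group, at 0.435 (0.263 to 0.684). In old cells it was at 0.385 (0.137 to 0.878), on 6 UMIs in 64 dividing cells. The Nrp2 ratio was 0.863 (0.584 to 1.25) in young cells and 0.981 (0.411 to 2.01) after AngII. Efna5 was higher in dividing old cells (1.58, 1.24 to 1.997) but lower in dividing young cells (0.785, 0.658 to 0.931). Its ratio was 1.13 (0.859 to 1.47) after AngII and 0.908 (0.789 to 1.04) in the siPiezo1 group. Ntn4 was lower in dividing cells after AngII (0.440, 0.209 to 0.823), on 10 UMIs in the 75 dividing cells. In young cells, on 81 against 279 UMIs, its ratio was 1.11 (0.853 to 1.42). Slit2 had ratios of 0.919 (0.843 to 1.002), 1.02 (0.864 to 1.20), 1.505 (1.23 to 1.82) and 0.829 (0.771 to 0.892) in tags 1 to 4.

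All cells, with or without a tag, were also clustered with the guidance list left out of the variable genes, which gave 14 clusters. Young and AngII-treated cells fell mostly into clusters with few cells of other tags. Old cells had no such cluster: 216, 122 and 78 of the 497 were in clusters 0, 1 and 6, beside 553, 391 and 91 siPiezo1-labelled cells. Cluster 2 (1931 cells, 1734 of them young, led by Ifit3 and other interferon response genes) held the most Epha3, at 59.7 CPM (55.5 to 64.1), and cluster 7 (562 cells, 528 young, dividing cell-like) held 52.9 (46.5 to 60.0). The highest Slit2 was in cluster 9 (429 cells, 283 of them siPiezo1-labelled, led by Lmo7, Klra4 and Slpi), at 1365 CPM (1327 to 1404), beside 155 (142 to 168) of Robo1. Among siPiezo1-labelled cells alone Slit2 was at 1369 in cluster 9, 825 in cluster 0, 749 in cluster 1 and 354 in cluster 6. Cluster 6 (723 cells), VSMC-like with Acta2, Myl9 and Tagln among its 10 leading genes, held the most Sema3a over all tags, at 314 (301 to 327). Cluster 13, at 302 (253 to 356), overlaps it. The order differed within tags. Among old cells Sema3a was at 237 (207 to 269) in cluster 6 and 286 (264 to 311) in cluster 0. Among siPiezo1-labelled cells it was at 302 (270 to 337) and 275 (261 to 290). Within the young cells, cluster 11 (164 young cells) held 991 CPM of Slit2 against 346 in cluster 2. Cluster 11 was led by Cxcl10, Ifit3 and Ifit3b and had Acta2 among its 10 leading genes. Scrublet called 31.0% of its cells doublets.

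**Figure D5:**
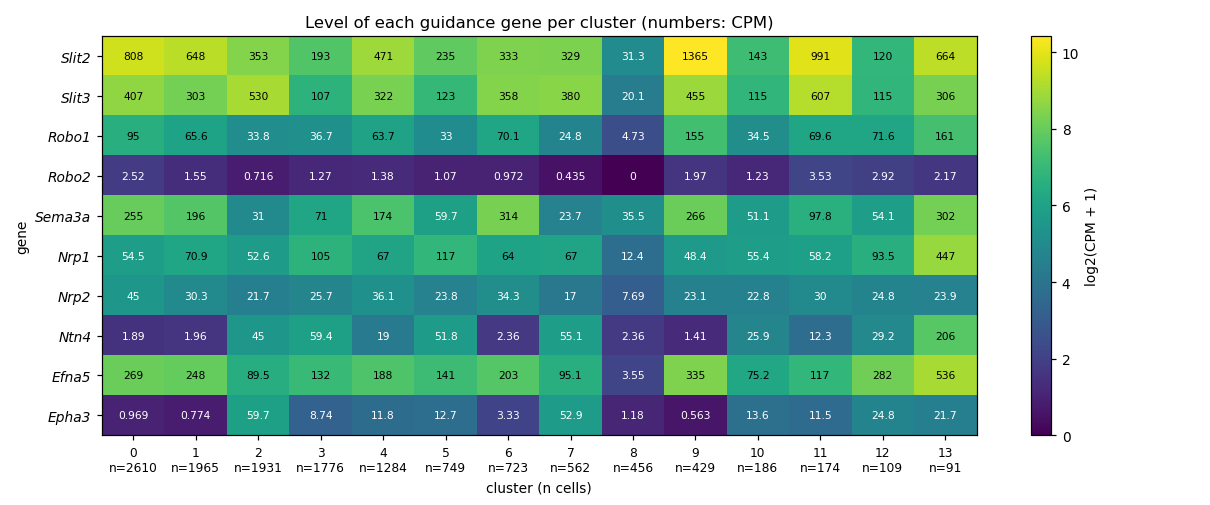
Level of each member (rows, colour log2 of CPM + 1, printed numbers CPM) in each of 14 clusters (columns, with the number of cells). Slit2 peaks in cluster 9 at 1365, Nrp1 and Efna5 in cluster 13 at 447 and 536, and Slit2 is lowest in cluster 8 at 31.3.

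A pair of small clusters lay at the ends of the range of another measure, the share of UMIs from long genes. Genes with a span of at least 100 kb, the guidance list left out, gave 10.1% to 10.9% of the UMIs in the 4 tags. They gave 31.1% in cluster 13 (91 cells, led by Zfp804a, Gpr39 and Lama2), where Nrp1 was at 447 CPM (388 to 512), Efna5 at 536 (471 to 607) and Ntn4 at 206 (167 to 252). They gave 2.64% in cluster 8 (456 cells, median 3282 UMIs), where Slit2 was at 31.3 (23.5 to 40.99), Slit3 at 20.1 (13.9 to 28.1) and Efna5 at 3.55 (1.30 to 7.72). Within young cells cut into 3 equal parts by that share, after thinning, Slit2 was at 176 CPM in the lower and 649 in the upper part, a ratio of 3.68 (3.38 to 4.01), and Slit3 at 184 and 722. The ratio for Slit2 was 3.22 (2.75 to 3.79) in old cells, 5.29 (4.50 to 6.25) after AngII and 3.65 (3.39 to 3.95) in the siPiezo1 group. Of the 9 members tested, Ntn4 had the lowest of these ratios in young cells, 1.28 (1.02 to 1.61). The tags themselves differed little in this share, and scaling the levels to the long genes left 7 members past 1.5-fold for old cells and 5 for AngII, and 1 in the siPiezo1 group, where the Slit2 ratio became 1.45. The share of all genes past 1.5-fold under that scaling is not given here, so nothing is read from these counts. Long genes were added as a measure after the values were seen.

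The genes whose counts across cells were most like those of a member were found over 5652 tagged cells thinned to 5000 UMIs, each tag centred on its own mean, among 6339 genes of at least 20 CPM. These correlations are a description over cells of 1 library. Slit2 was closest to Pcdh7 (Pearson r = 0.37), Zfpm2 (0.37) and Pcdh9 (0.36), Slit3 to Pcdh7 (0.31), Pdzrn3 (0.30) and Mid1 (0.28), and Efna5 to Pcdh7, Zfpm2 and Dock4 (0.24 each). Sema3a reached 0.203 with Lingo2, and its next genes, Odc1 and Ptgs2, were just under the limit at 0.1995 and 0.193. The genes at or above 0.2 named here span from 228 kb for Pdzrn3 to 1245 kb for Lingo2, whereas Odc1 and Ptgs2 span 6.71 and 8.20 kb. Over the same cells the share of UMIs from long genes had r = 0.43 with Slit2, 0.35 with Slit3, 0.34 with Efna5, 0.23 with Robo1 and 0.05 with Nrp2. Robo1, Nrp1, Nrp2 and Ntn4 had no gene at 0.2 or above, and Epha3 and Robo2 were under the level limit.

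The largest of the 28 pairwise correlations was that of Slit2 and Slit3 (r = 0.26), followed by Slit2 and Efna5 (0.21) and Slit2 and Robo1 (0.17), while Ntn4 had r between -0.04 and 0.07 with the other 7 members of at least 20 CPM. Robo1 UMIs were found in 19.2% (17.2 to 21.2) of thinned young cells with Slit2 and 11.6% (9.52 to 13.8) of those without, and in 36.6% (33.9 to 39.4) and 20.6% (15.6 to 26.3) of siPiezo1-labelled cells. Nrp1 was found in 25.8% (21.5 to 30.4) of young cells with Sema3a and 23.5% (21.7 to 25.5) of those without, intervals that overlap in the other 3 tags as well. Epha3 was found in 13.5% (11.4 to 16.0) of young cells with Efna5 and 13.8% (12.1 to 15.6) of those without.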

How the data were processed

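The authors deposited raw UMI counts of 32285 genes and 4 hashtags over 2472397 barcodes, made with Cell Ranger 4 (per the submitters' processing notes) from a 10x Genomics 3′ library with TotalSeq-A hashtags and unfiltered for cells. The build and whether reads in introns were counted: not given in the sources used here. Members and lists were chosen with earlier results of these data known. From the deposited counts, cells were barcodes with 200 or more genes and 2218 or more UMIs (for the 10000 deepest barcodes, the 99th percentile of their totals over 10). A tag was given where that hashtag alone was above its cutoff (36, 52, 61 and 41 UMIs). UMIs were summed per tag and divided by all gene UMIs of its cells. With 1 culture per group, groups were compared by levels and ratios with no test. Other list genes were named at a ratio of at least 2 or at most 0.5 with a mean of at least 5 CPM, and like genes by the 3 highest correlations of at least 0.2. Clusters used Seurat 5.3.0 in R 4.3.3 (2000 variable genes, 30 components, 20 neighbours, resolution 0.8). Doublets were called with Scrublet (expected rate 0.1). The 2606 cells called (20.0%) exceed that rate and stayed in unless noted. Free RNA (profile from barcodes of 1 to 100 UMIs) was estimated at 2.30%, from the 92.9% of 2068 cells with at least 2 Y-linked UMIs, no second tag and no doublet call that held no Xist UMI. This estimator was chosen after values were seen, in place of the mean Xist level of cells with at least 2 Y-linked UMIs over that of free RNA, which gave 35.3%, counts doublets in, and would put Ntn4 from free RNA at 4.55 CPM. Thinning drew 5000 UMIs per cell without replacement and left out 747, 21, 136 and 114 cells of tags 1 to 4. The ratio and thinning steps were tested on simulated data.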

Additional observations from a re-analysis of the deposited data

How the results depend on the processing

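No paired analysis was possible because each group is 1 culture and carries no replicate number. The ratios of the 9 tested members between tags were recomputed under 10 alternatives set along with the design and 2 chosen after seeing the data (Xist-only cells, scaling to long genes). Subtraction of free RNA was among the 10, but the estimator it used was chosen after values were seen. In Xist-only cells 2 members were past 1.5-fold for old over young cells (Ntn4 and Epha3) and 2 for AngII (Slit3 and Epha3), in place of 7 and 5. For siPiezo1 over old cells the count went from 2 to 4 with only cells whose highest tag was at least 3 times the next (Slit2, Slit3 and Robo1 higher, Epha3 lower) and to 1 with the scaling to long genes. The share of all genes past 1.5-fold under these alternatives is not given here, so nothing is read from these counts. Of the ratios past 1.5-fold, the direction turned for Nrp1 after AngII (0.891), Nrp2 in old cells (0.92) and Slit2 after AngII (1.01) in Xist-only cells, and for Ntn4 in the siPiezo1 group (0.732) under the 3-times rule. Of the ratios within 1.5-fold, Sema3a (0.892) and Efna5 (0.914) after AngII turned in Xist-only cells, as did Nrp1 in the siPiezo1 group (0.96). Sema3a (0.753) and Nrp2 (1.02) in the siPiezo1 group turned in Y-only cells, Robo1 after AngII without doublets (1.07) and Nrp2 after AngII with thinning (1.01). The cause was not tested. Over all 12 alternatives the old over young ratio ran from 0.0204 to 0.073 for Ntn4, 0.024 to 0.0713 for Epha3 and 1.22 to 6.48 for Sema3a, and the AngII ratio of Slit3 from 0.183 to 0.527. With 1 culture per group, depth limits only the counting error.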

Other observations

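The 5307 cells in which no hashtag passed its cutoff entered no comparison. In them Slit2 was at 557 CPM (549 to 564), Slit3 at 322 (316 to 327), Robo1 at 63.8 (61.4 to 66.3), Sema3a at 197 (193 to 201) and Efna5 at 221 (217 to 226). Nrp1 was at 69.2 (66.7 to 71.8) and Nrp2 at 32.6 (30.9 to 34.4). Ntn4 was at 9.68 (8.76 to 10.7) and Epha3 at 2.97 (2.465 to 3.54), between the levels of the old and the young cells. In free RNA, taken from barcodes of at most 100 UMIs, Slit2 was at 327 CPM, Slit3 at 238, Ntn4 at 12.9 and Epha3 at 11.5.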
